A study of Mus musculus with 15 samples.

Results

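Human-derived lincRNA regions were followed in the brains of APP/PS1 mice at 4 ages and of wild-type mice. They comprise the non-control array features whose names begin with humanlinc, and 1217 such regions were found among 59709 distinct non-control probes. The choice rested on the probe names and on no measured value. APP/PS1 mice, a model of Alzheimer's disease, were sampled at 1, 3, 6 and 9 months of age, with 3 samples labelled per group. The wild-type (WT) group also had 3 labelled samples, and its labels give no age, although the design text speaks of age-matched controls. All mice were on a C57BL background, whole brain was taken, and total RNA was labelled with Cy3 and hybridised to 1-colour Agilent arrays. In every group 1 sample is labelled male and the other 2 female, whereas the design text names males alone. The labels name neither the transgene's promoter nor the APP/PS1 line.

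Long intergenic non-coding RNAs (lincRNAs) are long transcripts made from DNA between protein-coding genes that carry no long reading frame. They are commonly less abundant and more restricted to single tissues than mRNAs, and brain expresses many of them. Their sequences are often poorly conserved between mammals, so a set named after human lincRNAs and placed on a mouse array is known only by what each probe captures from mouse RNA. APP/PS1 mice carry mutant amyloid precursor protein and presenilin 1 and deposit amyloid in the brain as they age. The file names carry a number for each lincRNA and a + or - suffix. The files used here do not say whether a probe holds human sequence or its mouse counterpart, and no function, probe sequence or position is given, so the regions are described by name alone.

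Scanner files were analysed for 14 of the 15 labelled samples, since the third WT sample was represented only by background values. The arrays of replicates 2 and 3 at 1, 3 and 6 months nearly coincided. The residual noise of their negative control probes correlated at 0.8 to 0.825 within these 3 pairs, against at most 0.24 in the 10 other pairs of one group. The human-derived regions differed by a median of 0.0725 to 0.0794 on the log2 scale within these pairs, and by 0.162 to 0.374 in the 10 others. Each such pair was therefore averaged and counted as 1 sample, called the averaged female sample below, which left 11 samples: 2 per group, and 3 at 9 months. The 9-month arrays alone were scanned at 354 V, and the others at 355 or 356 V, so the 9-month group and its scan setting cannot be told apart. Nothing in the labels ties a sample to a separate litter or extraction, so p-values rest on the spread between these samples. In WT and at 1, 3 and 6 months, that spread is the gap between the labelled male and the female or averaged female sample. The 9-month group holds 1 male and 2 females, so its mean weights the labelled sexes differently from the other groups. None of 23 fixed brain and blood marker genes matched a probe (0 of 23), and the tissue label could not be checked in that way.

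A median of 42.4% of the human-derived regions lay well above background on an array. This is the scanner software's flag for a signal clearly over the local background. The share was 36.3% and 35.9% on the WT arrays. It was 41.6%, 45.1% and 43.1% on the 1-month arrays and 35.0%, 41.3% and 37.5% on the 3-month arrays. The 6-month arrays had the highest shares, with 45.3%, 57.8% and 56.0%, and the 9-month arrays had 36.7%, 47.0% and 48.9%. Only the 6-month group lay wholly above all arrays of WT and 3 months and above the 1-month arrays, and its lowest array was below 2 of the 9-month arrays. The share over all probes ran from 68.1% to 82.4% and was highest on the same 6-month arrays as the human-derived share. On every one of the 14 arrays the human-derived share was below that of the mouse lincRNA regions, with a difference of -6.55 to -2.01 percentage points. Within the 1-, 3-, 6- and 9-month groups the array of the labelled male had the lowest share. In these groups it was also the lowest for mouse lincRNA regions and for all probes, so this was not particular to the human-derived regions.

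**Figure D1:**
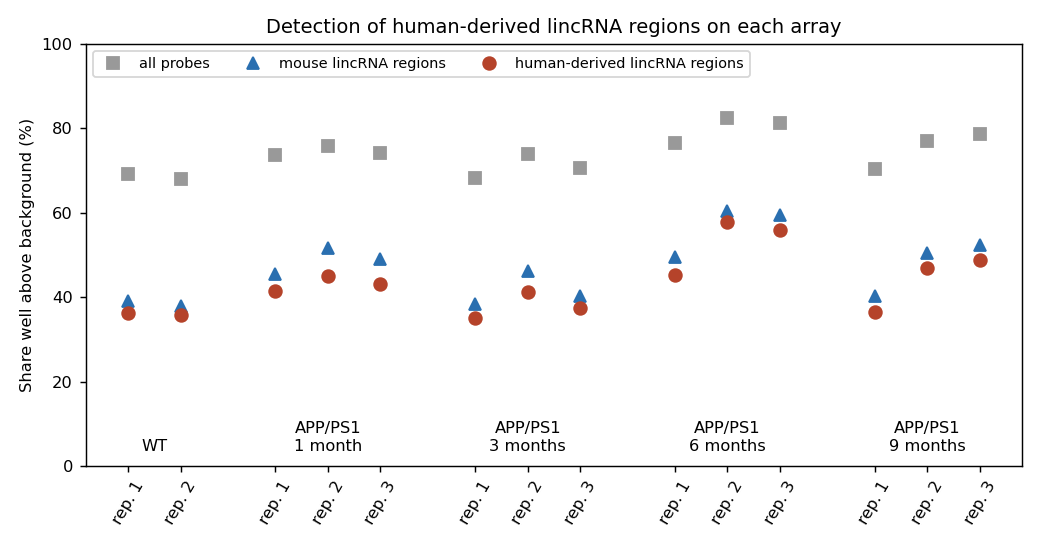
Share of human-derived lincRNA regions (circles), mouse lincRNA regions (triangles) and all probes (squares) flagged well above background, in percent, on each of the 14 arrays by group and replicate. The circles run from 35.0% to 57.8%, lie just under the triangles on every array, and are highest on the 6-month arrays.

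Of the 1217 regions, 328 (26.95%) were well above background on all 14 arrays, 402 (33.03%) on no array, and 487 on some. Mouse lincRNA regions (691) gave 29.38% on all arrays and 28.65% on none, and lincRNA exon regions (3457) gave 50.97% and 16.08%. Over all probes the shares were 62.04% and 12.1%. The human-derived regions were thus detected slightly less often than mouse lincRNA regions and clearly less often than lincRNA exons or probes at large on these arrays. On every array of a group, 395 regions were detected in WT, 454 at 1 month, 375 at 3 months, 526 at 6 months and 427 at 9 months. WT had 2 arrays and each other group 3, so the WT count had fewer arrays to meet. Detection followed a group exactly for few regions, and these were looked up after their values were seen. Neither set of counts was made over all probes or mouse lincRNA regions, so none is known to be particular to these regions. On no WT array and on all 12 others were 4 regions: humanlincRNA0409-, humanlincRNA1385-, humanlincRNA1735- and humanlincRNA2206-. On every 6-month array and no other were 6 regions, and on every 9-month array and no other was 1, humanlincRNA0043-. The flag depends on each array's own background as well as on the level. For humanlincRNA2300+, detected on the 6-month arrays alone, the level was -5.08 and -4.81 at 6 months and -4.91 and -4.68 in WT.

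The + and - suffixes were detected almost equally often, with 165 of 608 + regions and 163 of 609 - regions on all arrays. For 608 lincRNA numbers both suffixes were on the array. Both were detected on all arrays for 49 numbers, and neither on any array for 73. In 230 numbers 1 suffix was detected on all arrays and the other was not. Among these, the + region was on all arrays and the - region on none for 42 numbers, and the reverse held for 48. An example is humanlincRNA1513-, detected on all 14 arrays, whose partner humanlincRNA1513+ was well above background on 0 of 14.

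Levels are given below as log2 intensity minus the 75th percentile of the same array, so that 0 is the level of that percentile. Differences are on the same log2 scale. A region was tested where it was well above background on every array of at least 1 group, which 558 of the 1217 regions met. These were the 328 regions detected on all arrays and 230 others that had to be detected in some group to enter. A region is called where limma's moderated test gave an adjusted p below 0.05 over all 45901 probes tested. The pooled SD between samples of one group had a median of 0.232 for the 328 regions and 0.537 for the 230. The 4 comparisons with WT share the same 2 WT samples. In whole-brain RNA, fewer cells of a type and less RNA per cell cannot be told apart.

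At 9 months the human-derived regions detected on all arrays were more often lower than higher than in WT. Over the 558 tested regions, 34 were called higher and 51 lower. Those are 6.09% and 9.14% of the regions, beside 18.5% of all probes tested called higher and 14.6% called lower. Of the 328 regions detected on all arrays, 12 were higher and 47 lower. In a fit limited to probes detected on every array the members' shares were 5.18% higher and 17.7% lower, beside 20.6% and 19.1% of those 36855 probes, so the share lower was near that of all probes and the share higher below it. The median difference of the 328 regions in that fit was -0.13, and that of all its probes -0.00465. Mouse lincRNA regions gave 28 higher and 37 lower of 346. Leaving out WT replicate 1 gave 54 calls in place of 85, with 22 higher and 32 lower. After normexp background correction the 197 calls were split 5 higher and 192 lower, beside 5714 higher and 11351 lower of 45901 probes tested. Quantile normalization gave 22 higher and 72 lower, beside 7377 and 7984 of those probes.

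The lowest 9-month levels relative to WT were those of humanlincRNA2257-. Its level was -1.54 and -1.61 in WT, -1.79 and -1.94 at 1 month, -1.30 and -1.60 at 3 months, -1.19 and -1.71 at 6 months, and -4.06, -3.70 and -3.02 at 9 months. All 3 samples at 9 months lay below each of the 8 other samples. The 1-month samples lay just below those of WT, 3 and 6 months, which overlapped. The 9-month mean was 4.05-fold below WT, a log2 difference of -2.02 (SE 0.29, n = 3 and 2, adjusted p = 0.00168). This call was kept in all 21 alternatives, with differences of -2.3 to -1.2. The level of humanlincRNA1165- was -3.0 and -3.31 in WT and -4.96, -4.33 and -4.29 at 9 months, which did not overlap, and it was well above background on 2 of the 3 arrays at 9 months. The fitted difference was -1.37 on the log2 scale (SE 0.26, adjusted p = 0.00543), and the call was kept in all 20 alternatives. The region entered the test only through the other groups, where it was higher than at 9 months, so its values are a description. The same holds for humanlincRNA1082+, also well above background on 2 of the 3 arrays at 9 months. Calls on humanlincRNA1082+ (-1.18, SE 0.27, adjusted p = 0.012) and humanlincRNA0791+ (-1.07, SE 0.24, adjusted p = 0.0109) each rested on 1 WT sample. Without WT replicate 2 the first had adjusted p = 0.0855, and without WT replicate 1 the second had 0.0799. The call on humanlincRNA0367+ was lost in 11 of 21 alternatives, and its WT samples stood at -0.53 and -1.88. Its difference of -1.19 was -0.51 without WT replicate 1 and -1.86 without WT replicate 2.

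**Figure D2:**
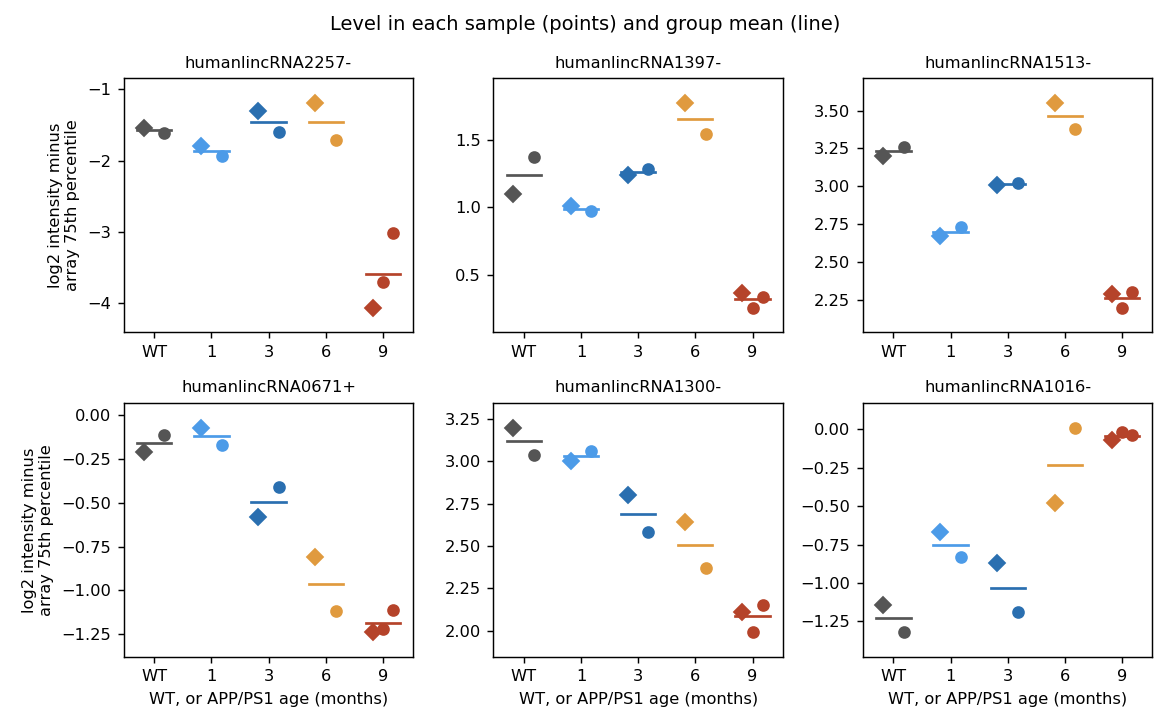
Level of 6 human-derived lincRNA regions detected on all arrays, in each of the 11 samples (diamonds, labelled male; circles, female or averaged female sample) with the group mean as a line; the vertical axis is log2 intensity minus the array's 75th percentile, the horizontal axis WT or the age of APP/PS1 mice in months. The 9-month samples of humanlincRNA2257-, humanlincRNA1397- and humanlincRNA1513- lie below all other samples, while humanlincRNA0671+ and humanlincRNA1300- have lower group means at each later age.

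In humanlincRNA0671+ and humanlincRNA1300-, both detected on all arrays, the APP/PS1 group mean was lower at each later age. The level of humanlincRNA0671+ was -0.21 and -0.11 in WT, -0.07 and -0.17 at 1 month, -0.58 and -0.41 at 3 months, -0.81 and -1.12 at 6 months, and -1.24, -1.22 and -1.11 at 9 months. WT and 1 month overlapped, 3 months lay below both, and the 6- and 9-month samples overlapped at the bottom. Against WT its difference was -0.33 at 3 months (adjusted p = 0.128), -0.80 at 6 months (SE 0.12, adjusted p = 0.00311) and -1.03 at 9 months (SE 0.11, adjusted p = 0.000495). The 9-month call was kept in all 21 alternatives, and the 6-month call was lost in 1 of 24, where only the compared groups were fitted.

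The level of humanlincRNA1300- went the same way, from 3.20 and 3.04 in WT and 3.00 and 3.06 at 1 month to 2.80 and 2.58 at 3 months, 2.64 and 2.37 at 6 months and 2.11, 1.99 and 2.15 at 9 months. The 9-month samples lay below all others, while the 3- and 6-month samples overlapped. Against WT it was lower by a difference of -1.04 at 9 months (SE 0.11, adjusted p = 0.000501, kept in all 21 alternatives). At 6 months the difference was -0.61 (SE 0.12, adjusted p = 0.0105), which became adjusted p = 0.0612 without WT replicate 1 and 0.0506 without the averaged female sample of 6 months.

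The level of humanlincRNA1016- was -1.14 and -1.32 in WT, -0.67 and -0.83 at 1 month, -0.87 and -1.19 at 3 months, -0.48 and 0.01 at 6 months, and -0.07, -0.02 and -0.04 at 9 months. The 6- and 9-month samples lay above all WT, 1-month and 3-month samples. Its difference from WT was 1.00 at 6 months (SE 0.17, adjusted p = 0.00559) and 1.18 at 9 months (SE 0.16, adjusted p = 0.00125). The 9-month call was kept in all 21 alternatives, and the 6-month call was lost in 1 of 24.

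At 6 months more regions were called higher than lower. Of the 558 regions 43 were higher (7.71%) and 15 lower (2.69%), beside 13.7% and 9.27% of all probes tested. Of the 328 detected on all arrays, 15 were higher and 15 lower, so the surplus of higher calls lay among the 230 other regions. Those entered the test only through a group that detected them on every array, and the 6-month group detected the most, so the surplus is not evidence of a rise. In the fit limited to probes detected on every array the shares were 6.1% higher and 4.88% lower, beside 15.3% and 12.4% of those probes. The median difference over the 558 regions was 0.12, and over all probes 0.07. Leaving out WT replicate 1 reduced the 58 calls to 23. After normexp correction 4 regions were higher and 120 lower, beside 3581 and 8332 of all probes tested. Quantile normalization gave 28 higher and 16 lower, beside 5367 and 4636 of all probes tested. Without a filter 38 regions were higher and 105 lower, and the split over all probes is not given for that fit. The fit without a filter tested 1215 regions, among them regions that no array detected. For example, the undetected humanlincRNA1590- had means of -6.70 in WT and -7.54 at 6 months. The part of such undetected regions in the 105 lower calls was not tested, so these are not read as falls. The 6-month arrays also had the highest share of detected probes, and the part of that difference in these calls was not tested.

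**Figure D3:**
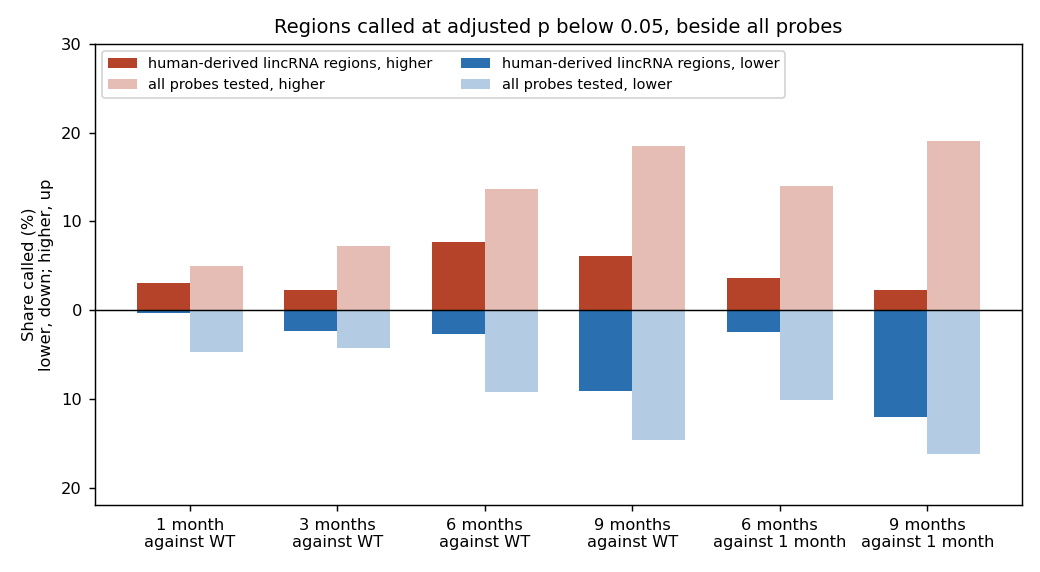
Share of the 558 tested human-derived lincRNA regions (dark bars) and of the 45901 probes tested (light bars) called higher (up) or lower (down) in each comparison, in percent. The dark bars are shorter than the light ones in every comparison and direction, and the dark bars at 9 months point mainly down.

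The regions with the widest fitted differences at 6 months were dim and not detected in WT. The level of humanlincRNA0518+ was -5.57 and -6.17 in WT, -4.20 and -4.42 at 1 month, -5.45 and -4.88 at 3 months, -3.33 and -1.83 at 6 months, and -3.76, -3.52 and -3.57 at 9 months. The samples of 6 and 9 months lay above all others. Its fitted fold at 6 months was 9.76 (adjusted p = 0.00191). Since WT was not well above background, the measured part is a bound: the 6-month mean was at least 3.83-fold higher than the lowest signal that counted as detected. Its fitted log2 difference of 3.29 was 2.54 without the averaged female sample of 6 months and 4.03 without the male. At 9 months the region was at least 1.87-fold higher than WT (fitted fold 4.76, adjusted p = 0.00474). The level of humanlincRNA1751+ was -6.56 and -6.74 in WT and -4.24 and -2.14 at 6 months, where the male and the averaged female sample stood far apart. It was at least 2.51-fold higher at 6 months. The fitted log2 difference was 3.46, and it was 2.41 without the averaged female sample of 6 months and 4.51 without the male. The bounds for humanlincRNA1824+, humanlincRNA0574+ and humanlincRNA1590+ were at least 1.59-fold, 1.5-fold and 1.24-fold, against fitted folds of 6.53, 5.97 and 5.59. Of these regions, humanlincRNA1751+, humanlincRNA1824+ and humanlincRNA0574+ were detected on every array at 6 months alone. Neither WT array detected humanlincRNA0518+ or humanlincRNA1590+, which were detected on every array of several APP/PS1 groups. All of these regions entered the test only through groups where they were higher than WT, so their values are a description. After normexp correction humanlincRNA1824+, humanlincRNA0574+ and humanlincRNA1590+ reversed at 6 months, and the calls on humanlincRNA0518+ and humanlincRNA1751+ were lost.

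**Figure D4:**
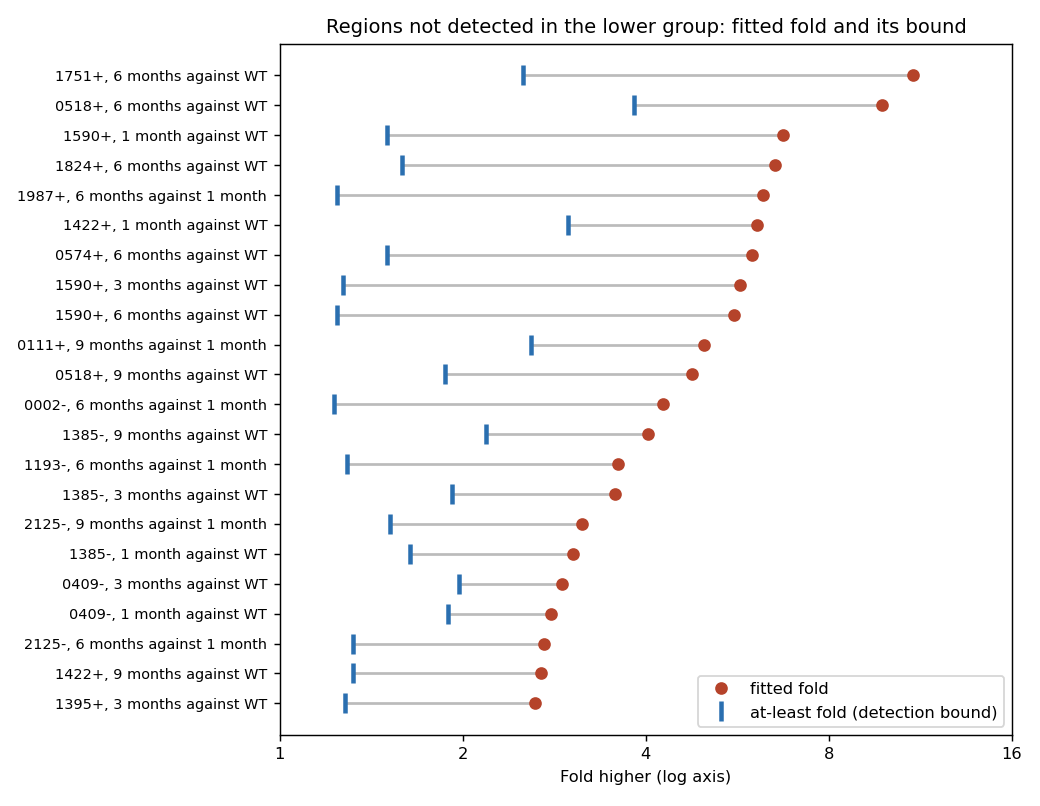
Fitted fold (circles) and the smallest fold that detection supports (vertical marks) for 22 differences of named human-derived lincRNA regions whose lower group was not well above background; the horizontal axis is fold higher on a log axis, and each line names the region and comparison. The fitted folds run from 2.63 to 11, and the bounds from 1.23 to 3.83.

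The named regions lower at 6 months were detected on all arrays, and all but 1 were brighter. The exception was humanlincRNA0848-, at -3.24 and -3.63 in WT and -4.20 and -4.45 at 6 months. The level of humanlincRNA1094- was -0.22 and 0.00 in WT and -0.84 and -1.01 at 6 months, a difference of -0.81 (SE 0.13, adjusted p = 0.00359). The level of humanlincRNA0459+ was -0.72 and -0.54 in WT, -1.08 and -0.96 at 1 month, -1.10 and -0.97 at 3 months, -1.49 and -1.16 at 6 months, and -0.44, -0.28 and -0.35 at 9 months. It was lower than WT at 6 months (-0.69, SE 0.13, adjusted p = 0.0071), while at 9 months its 3 samples lay above all others (0.27 against WT, adjusted p = 0.111). Both 6-month calls were lost in 1 of 24 alternatives, where only the compared groups were fitted. The difference of humanlincRNA2163- was -0.69 (SE 0.15, adjusted p = 0.0145), with adjusted p = 0.0581 without WT replicate 1 and 0.0627 without WT replicate 2. The difference of humanlincRNA0848- was -0.89 (SE 0.21, adjusted p = 0.0207), with adjusted p = 0.11 without WT replicate 1 and 0.0956 without the averaged female sample of 6 months.

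At 1 month 17 regions were higher than WT and 2 lower, which is 3.05% and 0.358% of the regions beside 4.95% and 4.71% of all probes. The count rested on single samples: it was 8 without WT replicate 1, 6 without the 1-month male, 9 without the averaged female sample of 1 month and 12 without replicate 3 of 9 months. Fitting only the compared groups left 1 call. Normexp correction gave 1 higher and 36 lower, beside 1038 and 3036 of all probes. The regions called lower were humanlincRNA1513-, described below, and humanlincRNA2300+, which was not well above background in either group, so no size is given, and is named after its values were seen. The named regions that were higher were dim. None was well above background on every WT array. Each entered the test only through APP/PS1 groups, where it was higher, so the values are a description. The level of humanlincRNA1422+ was -5.91 and -5.19 in WT and -3.18 and -2.70 at 1 month, at least 2.98-fold higher (fitted fold 6.1, adjusted p = 0.00215), with a call that 2 of 23 alternatives ended. The level of humanlincRNA1590+ was -6.63 and -6.74 in WT and -4.20 and -3.67 at 1 month, at least 1.5-fold higher (fitted fold 6.73), with adjusted p = 0.00834, or 0.0578 without the averaged female sample of 1 month. Calls on humanlincRNA2028- and humanlincRNA0409- were each lost in 16 of 23 alternatives.

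The region humanlincRNA1385- was higher than WT at all 4 ages. Its level was -5.35 and -5.46 in WT, where it was not well above background, and was -3.92 and -3.69 at 1 month, -3.52 and -3.63 at 3 months, -3.44 and -3.33 at 6 months, and -3.33, -3.44 and -3.41 at 9 months. Every APP/PS1 sample lay above both WT samples. The bound was at least 1.64-fold at 1 month, 1.92-fold at 3 months, 2.19-fold at 6 months and 2.18-fold at 9 months (adjusted p = 0.000137, 5.64e-05, 1.97e-05 and 9.93e-06). Within APP/PS1 mice it was higher at 6 than at 1 month (0.42, SE 0.10, adjusted p = 0.0219). After normexp correction the differences were -0.29, -0.07, -0.14 and -0.07, so the direction did not hold under that setting. It was well above background on 12 of the 14 arrays, that is on all but the WT arrays. It therefore entered the test only through the APP/PS1 groups, where it was higher, and its values against WT are a description. Its partner humanlincRNA1385+ was detected on 7 arrays, with levels of -4.51 and -4.39 in WT.

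At 3 months 13 regions were higher and 13 lower than WT (2.33% each), beside 7.2% and 4.27% of all probes. There were 11 calls without WT replicate 1, 10 without the 3-month male and 50 without the averaged female sample of 3 months. Without WT replicate 2 there were 18 higher and 4 lower. Normexp correction gave 0 higher and 20 lower, beside 1354 and 1097 of all probes. Quantile normalization gave 10 and 21, beside 2818 and 2320 of all probes. The level of humanlincRNA0498- was -0.62 and -0.51 in WT, -0.51 and -0.57 at 1 month, -1.56 and -1.10 at 3 months, -0.93 and -1.09 at 6 months, and -1.13, -1.21 and -1.07 at 9 months. All samples of WT and 1 month lay above all samples of 3, 6 and 9 months. It was lower than WT by a difference of -0.77 at 3 months (SE 0.15, adjusted p = 0.0155), with adjusted p = 0.0524 without WT replicate 1, 0.0772 without WT replicate 2 and 0.05 without the 3-month male. At 9 months it was lower by a difference of -0.57 (SE 0.13, adjusted p = 0.0136), with adjusted p = 0.0805 without WT replicate 2. The level of humanlincRNA1006- was -1.06 and -0.98 in WT and -1.73 and -1.72 at 3 months, a difference of -0.70 (SE 0.14, adjusted p = 0.0208). That call was lost on leaving out either WT sample (adjusted p = 0.0717 and 0.091) or either 3-month sample (0.0968 and 0.0677). The level of humanlincRNA1715- was -3.54 and -4.0 in WT and -5.82 and -4.93 at 3 months. Only 1 of the 3 arrays at 3 months was well above background, so the size of the fall was not measured. The region entered the test only through the other groups, where it was higher than at 3 months, so its values are a description. Its adjusted p was 0.0138, or 0.0771 without WT replicate 1 and 0.0504 without the 3-month male. The calls on humanlincRNA0409-, humanlincRNA1395+, humanlincRNA1901- and humanlincRNA1211- were lost in 14 of 23, 12 of 23, 15 of 24 and 15 of 24 alternatives.

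Within APP/PS1 mice, more regions were called lower than higher at 9 months against 1 month. Of the 558 regions 13 were higher and 67 lower (2.33% and 12%), beside 19.1% and 16.2% of all probes. Of the 328 detected on all arrays 8 were higher and 62 lower. In the fit limited to probes detected on every array, 2.44% were higher and 22.9% lower, beside 22.8% and 21% of those probes. The share lower was thus near that of all probes and the share higher below it. The members' median difference in that fit was -0.20, and that of all its probes -0.02. The mouse lincRNA regions gave 5 higher and 45 lower of 346. There were 52 calls without the 1-month male and 41 without the averaged female sample of 1 month. The region with the lowest difference was again humanlincRNA2257- (-1.73, SE 0.29, adjusted p = 0.0028, kept in all 21 alternatives). The level of humanlincRNA2213+ was -1.05 and -1.02 at 1 month and -2.48, -2.17 and -2.24 at 9 months, a difference of -1.26 (SE 0.27, adjusted p = 0.00855), with adjusted p = 0.0518 without the averaged female sample of 1 month. In the other direction, humanlincRNA0635+ stood at -4.71 and -5.24 at 1 month and at -2.74, -2.83 and -2.63 at 9 months. Its 9-month samples lay above all others and the difference was 2.24 (SE 0.45, adjusted p = 0.00619), with adjusted p = 0.0526 without the averaged female sample of 1 month. It was well above background on 1 of the 3 arrays at 1 month. The level of humanlincRNA0111+ was -6.50 and -5.08 at 1 month and -4.02, -3.48 and -2.94 at 9 months, at least 2.59-fold higher (fitted fold 4.98, adjusted p = 0.00684). Its fitted log2 difference of 2.32 was 1.61 without the 1-month male and 3.03 without the averaged female sample of 1 month. Both humanlincRNA0635+ and humanlincRNA0111+ were detected on every array at 6 and 9 months alone. They entered the test through groups where they were high, so their values are a description.

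Between 6 months and 1 month 20 regions were higher and 14 lower (3.58% and 2.51%), beside 14% and 10.1% of all probes. Without the 1-month male there were 16 calls, and 16 also without the averaged female sample of 1 month. Quantile normalization turned the split to 14 higher and 18 lower, beside 5760 and 5482 of all probes. The region humanlincRNA0563- stood at -4.25 and -4.33 at 1 month, below all other samples, and at -3.06 and -3.19 at 6 months. Of the dim regions, humanlincRNA2125- was at least 1.32-fold higher at 6 months than at 1 month (adjusted p = 0.00174). At 9 months it was at least 1.52-fold higher than at 1 month (adjusted p = 0.00046). It was detected on every array at 6 and 9 months alone. It entered the test through those groups, where it was high, so its values are a description. The bounds of humanlincRNA1987+, humanlincRNA0002- and humanlincRNA1193- were at least 1.24-fold, 1.23-fold and 1.29-fold. Each was detected on every array at 6 months alone and so entered the test through the group where it was high, and the values are given as a description. Their calls were lost in 4, 4 and 13 of 23 alternatives.

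An F test over the 4 ages called 108 of the 558 regions (19.4%), beside 45.4% of all probes tested and 50 of 346 mouse lincRNA regions (14.5%). The count was 66 without the 1-month male, 66 without the averaged female sample of 1 month, 70 without replicate 2 of 9 months and 70 without replicate 3 of 9 months. Of the 108, the lowest age mean was at 9 months for 61, at 3 months for 26, at 1 month for 15 and at 6 months for 6. The highest was at 1 month for 43, at 6 months for 28, at 3 months for 20 and at 9 months for 17. These splits were not counted over all probes called, so they are not known to be particular to these regions. Among regions detected on all arrays the widest range of age means was that of humanlincRNA2257- (2.14, adjusted p = 0.00146). The calls on humanlincRNA0367+ and humanlincRNA0095- were lost in 12 and 10 of 21 alternatives.

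The levels of humanlincRNA1513- had their highest mean at 6 months and their lowest at 9 months. They were 3.20 and 3.26 in WT, 2.67 and 2.73 at 1 month, 3.01 and 3.02 at 3 months, 3.55 and 3.38 at 6 months, and 2.29, 2.20 and 2.30 at 9 months. No 2 of the 5 groups overlapped. It was higher at 6 months than at 1 month (0.77, SE 0.08, adjusted p = 0.000516) and lower at 9 months than in WT (-0.97, SE 0.08, adjusted p = 0.000118). Both calls were kept in all 24 and 21 alternatives. The difference from WT was -0.53 at 1 month (SE 0.08, adjusted p = 0.00902), with adjusted p = 0.0662 without the 1-month male, and 0.23 at 6 months (adjusted p = 0.0838).

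Exactly 1 region was called in opposite directions against WT at 2 ages. The level of humanlincRNA1397- was 1.1 and 1.37 in WT, 1.01 and 0.97 at 1 month, 1.24 and 1.28 at 3 months, 1.77 and 1.54 at 6 months, and 0.37, 0.26 and 0.34 at 9 months. Both 6-month samples lay above all others and the 9-month samples below all others. The difference from WT was 0.42 at 6 months (SE 0.11, adjusted p = 0.0347) and -0.91 at 9 months (SE 0.10, adjusted p = 0.000619). The 9-month call was kept in all 21 alternatives. The 6-month call was lost in 13 of 24, among them the leave-outs of WT replicate 1 (0.28, adjusted p = 0.166) and of the 6-month male (0.30, adjusted p = 0.144). In 7 further leave-outs, each of 1 sample at 1, 3 or 9 months, the difference stayed at 0.42 with adjusted p from 0.0513 to 0.0568.

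Regions with neighbouring numbers were then set beside it. They were chosen after the values were seen, and no position on a chromosome was used. The level of humanlincRNA1396+ was 2.20 and 2.03 in WT, 2.20 and 2.24 at 1 month, 2.10 and 2.00 at 3 months, 1.85 and 1.69 at 6 months, and 1.44, 1.43 and 1.5 at 9 months. The level of humanlincRNA1398- was 2.07 and 2.19 in WT, 2.08 and 2.55 at 1 month, 2.00 and 2.06 at 3 months, 1.72 and 1.72 at 6 months, and 1.56, 1.61 and 1.68 at 9 months. In both the 6- and 9-month samples lay below all earlier ones and below WT. At 9 months humanlincRNA1396+ was lower than WT by a difference of -0.66 (SE 0.09, adjusted p = 0.00112, kept in all 21 alternatives). The difference of humanlincRNA1398- was -0.52 (SE 0.13, adjusted p = 0.0187), with adjusted p = 0.0544 without WT replicate 1, 0.104 without WT replicate 2 and 0.0538 without replicate 1 of 9 months. The level of humanlincRNA1396- was 0.29 and 0.87 in WT, 0.08 and -0.10 at 1 month, 1.39 and 1.25 at 3 months, 1.31 and 0.37 at 6 months, and -0.37, 0.14 and 0.36 at 9 months, so its mean was highest at 3 months. It passed the F test over ages (range 1.34, adjusted p = 0.0289), with adjusted p from 0.0579 to 0.1 in the 5 leave-outs that ended the call. These were of either 1-month sample, either 3-month sample and replicate 2 of 9 months. The dim humanlincRNA1395+ went the other way. Neither WT array detected it and 11 of the 12 APP/PS1 arrays did. It entered the test only through APP/PS1 groups, where it was higher, so its values are a description. Its levels were -5.31 and -5.81 in WT and -4.90, -3.91 and -4.16 at 9 months, where all 3 samples lay above WT and the region was at least 1.15-fold higher (adjusted p = 0.0222). That call was lost in 5 of 20 alternatives, with adjusted p = 0.134 without WT replicate 2 and 0.0605 and 0.0639 without 9-month replicates 2 and 3, and the difference reversed to -0.29 after normexp correction. The remaining neighbours humanlincRNA1395-, humanlincRNA1397+ and humanlincRNA1398+ were well above background on 0, 1 and 1 of 14 arrays.

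Over the 328 regions detected on all arrays, the range of the 5 group means had a median of 0.61, was under 0.5 for 112 regions and over 1 for 52. The narrowest was that of humanlincRNA2017- at 0.059. Its level was -2.65 and -2.52 in WT, -2.56 and -2.49 at 1 month, -2.67 and -2.43 at 3 months, -2.71 and -2.44 at 6 months, and -2.55, -2.56 and -2.59 at 9 months. All its groups overlapped. The next were humanlincRNA2114- (0.127), humanlincRNA0525- (0.128), humanlincRNA1283+ (0.148) and humanlincRNA2262+ (0.149).

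Few lincRNA numbers had both suffixes called, but few regions were called at all. The number of such pairs to be expected from the share of regions called was not worked out. Both were tested for 144 numbers. Both were called for 0 numbers at 1, 3 and 6 months against WT and at 6 months against 1 month, while 1 of the pair was called for 12, 11, 28 and 18. At 9 months both were called for 2 numbers against WT and for 3 against 1 month, and 1 of the pair for 37 in each. Both humanlincRNA1082+ and humanlincRNA1082- fell against WT (-1.18 and -0.70). Of these, humanlincRNA1082- was well above background on 1 of the 3 arrays at 9 months and humanlincRNA1082+ on 2. Both entered the test only through the other groups, where they were higher than at 9 months, so their values are a description. Against WT at 9 months, humanlincRNA1422+ was at least 1.32-fold higher, since WT was not well above background, and reversed to -0.34 after normexp correction. It entered the test only through APP/PS1 groups, where it was higher than WT. Its partner humanlincRNA1422- was lower (-0.69), with adjusted p = 0.0685 without WT replicate 1. Against 1 month both were lower at 9 months (-1.18 and -0.60). Between 1 and 9 months humanlincRNA2473+ was called lower (-0.55) and humanlincRNA2473- higher (0.62), while humanlincRNA0966+ and humanlincRNA0966- were both called lower (-0.57 and -0.87).

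Within groups, the labelled male differed from the other samples at many of these regions. In WT the male was lower by over 1 on the log2 scale at 26 of the 558 tested regions (4.66%, beside 1.99% of all probes) and higher at 20 (3.58%, beside 2.31%). At 1 month the male was lower at 59 (10.6%, beside 3.97%) and higher at 18 (3.23%, beside 1.34%). At 3 months it was lower at 63 (11.3%, beside 3.83%) and higher at 42 (7.53%, beside 2.77%). At 6 months it was lower at 78 (14%, beside 5.5%) and higher at 9 (1.61%, beside 0.739%). At 9 months it was lower at 52 (9.32%, beside 2.88%) and higher at 6 (1.08%, beside 0.536%). Mouse lincRNA regions gave similar shares, with 13% lower at 1 month and 14.7% at 6 months. No region had the male over 1 apart in the same direction in all 5 groups (0 of 558, beside 0 of 45901 probes). By any amount, the male was on the same side in all 5 groups at 47 regions, lower at 44 and higher at 3. That count was not made over all probes, and the number to be expected was not worked out. It is therefore not known to be particular to these regions. Each group holds 1 male, so these are single samples and no test was made, and labelled sex as a term moved no count of calls by over 1.5 times.

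The regions with the widest gap, among those detected on all arrays, showed which samples stood apart. The level of humanlincRNA1016+ was 0.02 in the WT male and -0.12 in the WT female. In the males of 1, 3 and 6 months it was -2.13, -2.06 and -2.25, and in the averaged female samples -0.01, -0.25 and -0.10. At 9 months it was -0.01 in the male and -0.20 and -0.04 in the females. These 3 males thus lay together below the other 8 samples, the males of WT and 9 months among those 8. The level of humanlincRNA1050- went the other way, with 0.08, 0.15 and 0.08 in the same males against -1.55, -2.28 and -1.64 in the averaged female samples, -2.77 and -2.43 in WT, and -1.79, -1.46 and -1.22 at 9 months. For humanlincRNA2330+ the same males had 6.14, 6.04 and 6.01, and the other 8 samples 3.84 to 4.88.

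Other regions divided the males differently. The level of humanlincRNA0341- was low in the males of all 4 ages (-2.99, -3.62, -3.05 and -3.31) and was -1.19 in the WT male, with -1.85 to -0.92 in the females. That of humanlincRNA2387+ was low in the males of 3 and 6 months (-1.83 and -2.38) and between -0.76 and 0.01 elsewhere. A single sample stood out for humanlincRNA2010-, at -1.35 in the 3-month male and between -3.78 and -3.05 in the rest. In such regions the group mean lies between samples that do not resemble each other, and with 2 samples a group the fit gives them a large error.

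**Figure D5:**
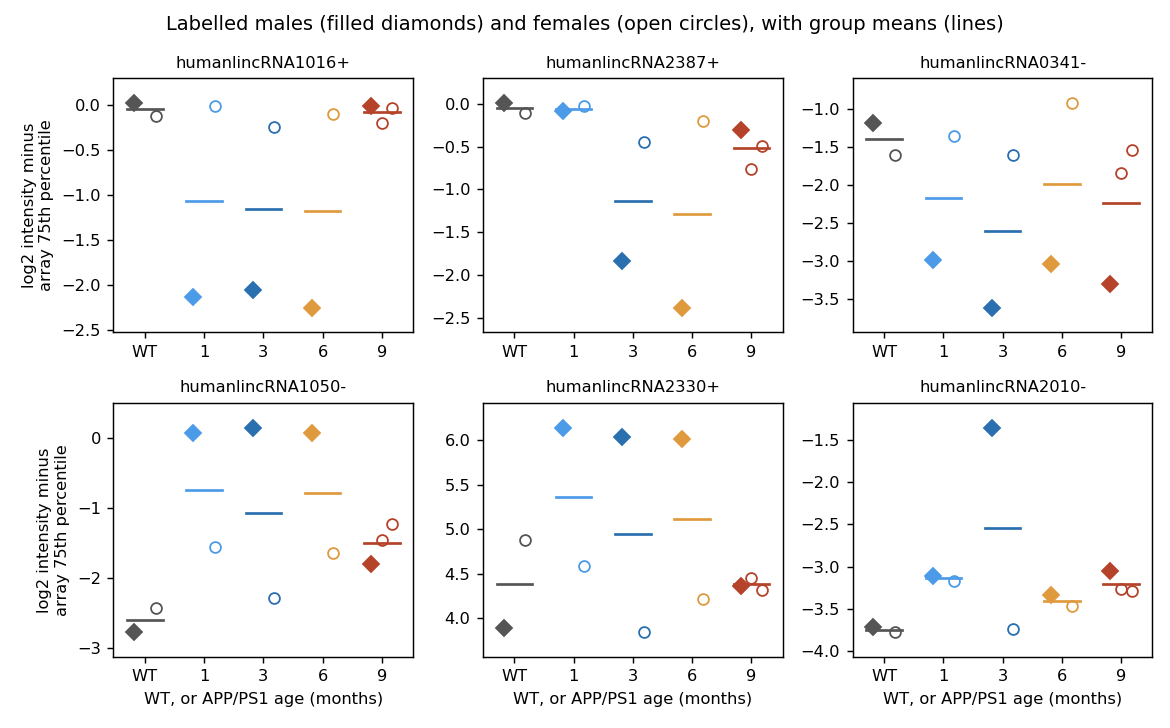
Level of 6 human-derived lincRNA regions with a wide gap between the labelled male (filled diamonds) and the female or averaged female samples (open circles) of a group, with group means as lines; the vertical axis is log2 intensity minus the array's 75th percentile, the horizontal axis WT or the age of APP/PS1 mice in months. For humanlincRNA1016+, humanlincRNA1050- and humanlincRNA2330+ the males of 1, 3 and 6 months lie together, away from the other 8 samples.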

How the data were processed

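Scanner output of 14 arrays was used, one per sample. Per the submitters' processing notes it was made with Agilent Feature Extraction 10.7.1.1. The values are the deposited processed intensity of each spot (background-subtracted by the scanner software, per the file headers) and its deposited flags, which are set by that software. The authors' series table was not used as expression, since its columns equalled the mean local background intensity within 0.001 in all 62513 rows of the 14 arrays with a scanner file. Control spots were left out. So were 134 probes with a single spot that was flagged as non-uniform on any array, 2 human-derived regions among them.

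Intensities were taken as log2 minus the log2 of each array's 75th percentile over the spots that remained. Over all 59994 non-control spots, before those probes were left out, the percentile ran from 384 to 566. Near-identical arrays of one group were averaged where the residuals of 20 negative control probes correlated above 0.5. Probes well above background on every array of at least 1 group were kept (45901 of 59575). All 5 groups entered 1 limma fit (limma 3.58.1 in R 4.3.3; lmFit, eBayes, two-sided, Benjamini-Hochberg over all probes kept), with the same fit for an F test over the 4 ages. Named regions were the 5 highest and 5 lowest called differences per comparison with samples that did not overlap, the 5 widest ranges over ages, the 5 narrowest over groups, those called in opposite directions, and their partners. The members and lists were chosen with earlier results of these data known. For a group that was not well above background the fold is a bound: the bright group's mean against, per array, the higher of the lowest signal well above background and the dim probe's own. The limma fit was tested on simulated data. Alternatives were normexp with offset 50, other scalings and filters, separate arrays, scan setting, labelled sex, an intensity trend, only the compared groups, and leaving out each sample. The planned normexp column was absent, so median signals were used. The alternative of arrays at the highest scan voltage alone, the lists of neighbouring numbers and of male samples, and the test of 9 against 6 months were chosen after seeing the data. The small number of arrays limits the precision.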

Additional observations from a re-analysis of the deposited data

Results flagged for a closer look

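The region humanlincRNA1397- differed from WT in opposite directions at 6 months (0.42) and 9 months (-0.91). The difference between those ages, 9 months against 6 months, was tested after the values were seen and was -1.33 (SE 0.10, limma, adjusted p = 9.89e-05). Both 6-month samples lay above both WT samples and all 3 samples of 9 months lay below them. The 6-month call itself was lost in 13 of 24 alternatives. The 9-month arrays were scanned at a setting of their own, which cannot be told apart from age.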

How the results depend on the processing

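No paired analysis was possible because every sample's label carries the same replicate number. Counts of called regions are given in the order 1, 3, 6 and 9 months against WT, 6 and 9 months against 1 month, and the F test over ages, where they were 19, 26, 58, 85, 34, 80 and 108. Leaving out 1 sample gave 6 to 22, 10 to 50, 23 to 66, 54 to 97, 16 to 37, 41 to 88 and 66 to 128. Where a WT sample was left out, the other was assumed to vary like the other groups. Treating every array as a separate sample moved the counts to 58 at 1 month, 77 at 3 months and 120 at 6 months against WT, to 84 and 132 at 6 and 9 months against 1 month, and to 218 in the F test, with near-identical arrays then counted as replicates. With the scan setting as a block and no 9-month arrays the first 3 were 47, 50 and 107, and 6 months against 1 month 84. Fitting only the groups compared left 1, 5 and 18 against WT and 15 at 6 months against 1 month, and gave more calls at 9 months, 118 against WT and 101 against 1 month, with 98 in the F test. Normexp, run on median signals, gave 37, 20, 124 and 197 at 1, 3, 6 and 9 months against WT, 12 and 38 against 1 month, and 42 in the F test. It moved the median of all probes against WT to -0.22, -0.14, -0.22 and -0.23, where the main medians were 0.01 to 0.07. Quantile normalization left 12 calls at 1 month. Without a filter there were 12 at 1 month and 143 at 6 months, and with probes detected on every array 36 at 6 months. At 3 months there were 14 calls without the 9-month samples and 13 with arrays scanned at 356 V alone. The median share of regions over background was 70.1% by the software's more lenient flag. Directions of named regions reversed under normexp alone: humanlincRNA1590+ (-0.27, -0.17 and -0.37 at 1, 3 and 6 months), humanlincRNA1385- (-0.29, -0.07, -0.14 and -0.07 at 1, 3, 6 and 9 months), humanlincRNA0409- (-0.22 at 1 month), humanlincRNA1395+ (-0.14 and -0.29 at 3 and 9 months), humanlincRNA1824+ (-0.27) and humanlincRNA0574+ (-0.30) at 6 months, and humanlincRNA0518+ (-0.13), humanlincRNA1148- (-0.33) and humanlincRNA1422+ (-0.34) at 9 months. The cause was not tested. Signal over background limits the dim regions, whose fold is only a bound.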
